A study of Mus musculus with 9 samples.

Results

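A set of 7 ligands and 2 receptors of the CC chemokine system was followed through GL261 mouse glioblastoma grown in mice and through 2 cultures that mix GL261 with brain cells. The ligands were Ccl2, Ccl3, Ccl4, Ccl5, Ccl7, Ccl12 and Ccl20, and the receptors were Ccr1 and Ccr2. They were taken by symbol, and all 9 had a row among the 20778 gene symbols of the deposited table. Of the 9, 8 reached a mean of 10 over the 9 libraries and were tested. Ccl20 did not and is described by its values.

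CC chemokines are small secreted proteins named for a pair of adjacent cysteines near their amino terminus. They bind receptors coupled to G proteins and draw leukocytes along a gradient. Ccl2, Ccl7 and Ccl12 are monocyte chemoattractants that act through Ccr2. Ccl3 and Ccl5 are ligands of Ccr1, and Ccl20 acts through Ccr6. In glioma, ligands of Ccr2 are known for recruiting monocytes that become tumour macrophages.

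RNA was sequenced in bulk, with 3 libraries in each of 3 groups, and every animal and primary cell was of the C57BL/6 strain. The tumour group came from 7-week-old male immunocompetent mice (5 animals per the labels) that received 50000 mCherry-labelled GL261 cells in the striatum and were taken on day 14. The 2D group was a dish culture of labelled GL261 with astrocytes, microglia, pericytes and endothelial cells freshly isolated from brains of 6- to 10-week-old male mice. The 3D group held this penta-culture in a fibrin bioink, and its gel was broken down before extraction with collagenase II (600 U/ml, 3 h), a step the labels give for that group alone. In both cultures GL261 was seeded at 1000000 cells per ml, and the labels name no drug treatment or knockout in any group. The labels do not say whether the libraries of a group came from separate mice or cultures, and they mention loading in triplicate. The p-values therefore rest on library-to-library spread, possibly technical. Each library is a mixture, so fewer cells of a type and less RNA per cell cannot be told apart.

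Values are the authors' normalized counts, rounded to whole numbers, and were compared on the scale log2(value + 1) with limma. Adjusted p-values (Benjamini-Hochberg over 13773 genes, threshold 0.05) come from that fit. Deposited values summed to 16320090 to 16388074 per tumour library, 15572800 to 15711632 in 2D culture and 13548461 to 13683978 in 3D bioink, after normalization. The spacing of the low values gave an estimate of what 1 read was worth, from 0.79 to 1.20 units in 8 libraries and 1.54 units in bioink replicate 1. At that spacing this library held about 8.80 M assigned reads (M, 1000000) against 13.6 M to 19.9 M in the others. It also had the lowest array weight in limma, 0.236 against 0.688 to 4.96. Across all tested genes, 64.4% differed between 3D bioink and tumours, 54.3% between 2D culture and tumours and 59.2% between the cultures, so a call by itself is common here.

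The genes lie on 3 chromosomes (GRCm38, GENCODE M21). Ccl2 (chr11:82035571-82037453), Ccl7 (chr11:82045712-82047525) and Ccl12 (chr11:82101845-82103400) lie on the plus strand of chromosome 11. Ccl5 (chr11:83525778-83530518), Ccl3 (chr11:83647844-83649355) and Ccl4 (chr11:83662584-83664683) follow on the same chromosome, Ccl4 on the plus strand and the other two on the minus strand. Ccl20 is at chr1:83116766-83119167, and Ccr1 (chr9:123962124-123968692, minus strand) and Ccr2 (chr9:124101950-124113557) share chromosome 9. The Ccl2 locus overlaps Gm17268 on the opposite strand, and strand use in counting is not given in the sources used here. The labels name a directional kit, but whether the counting kept reads of these 2 genes apart in the overlap is not known. In the sense orientation, Ccl2, Ccl3, Ccl4, Ccl7, Ccl12 and Ccl20 shared no 31-base stretch with a transcript of another gene. These sense counts do not cover overlap on the opposite strand. Ccl5 shared 0.539% of its stretches, Ccr1 0.642% and Ccr2 3.41%, so the Ccr2 values are the least separable from those of other genes.

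RefSeq promoter sequence (GRCm38.p6) was matched for 5 of the 9 genes, Ccl3, Ccl12, Ccl20, Ccr1 and Ccr2. Ccl2, Ccl4, Ccl5 and Ccl7 had no entry. The 250 bases before the start are shown for Ccl3, Ccl12 and Ccr1, which were high in tumours and at or near 0 in both cultures, and for Ccl20, which was listed at 0 in tumours. Capitals mark motif matches.
Ccl3, chr11:83649379-83649628, minus strand: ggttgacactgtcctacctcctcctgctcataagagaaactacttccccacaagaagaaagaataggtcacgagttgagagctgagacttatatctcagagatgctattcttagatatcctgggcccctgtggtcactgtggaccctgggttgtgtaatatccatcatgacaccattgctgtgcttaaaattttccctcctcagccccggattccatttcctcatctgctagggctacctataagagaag
Ccl12, chr11:82101595-82101844, plus strand: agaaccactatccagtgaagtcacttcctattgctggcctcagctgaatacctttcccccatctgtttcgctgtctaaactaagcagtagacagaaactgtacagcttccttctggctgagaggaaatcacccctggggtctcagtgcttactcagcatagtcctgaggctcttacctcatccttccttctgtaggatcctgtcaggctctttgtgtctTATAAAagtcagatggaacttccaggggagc
Ccr1, chr9:123968693-123968942, minus strand: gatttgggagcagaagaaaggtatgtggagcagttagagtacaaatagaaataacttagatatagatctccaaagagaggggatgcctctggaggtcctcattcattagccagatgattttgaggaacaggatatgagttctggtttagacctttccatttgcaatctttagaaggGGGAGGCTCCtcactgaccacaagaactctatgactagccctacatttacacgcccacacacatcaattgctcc
Ccl20, chr1:83116516-83116765, plus strand: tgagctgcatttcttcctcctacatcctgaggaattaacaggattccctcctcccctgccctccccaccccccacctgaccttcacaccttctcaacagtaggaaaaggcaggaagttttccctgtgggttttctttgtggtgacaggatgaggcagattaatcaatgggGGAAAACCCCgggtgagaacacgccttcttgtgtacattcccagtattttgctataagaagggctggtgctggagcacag

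A set of 5 motifs was searched on both strands of the 300-base window from 250 bases before to 50 after the start. The NF-kB consensus matched in Ccl20 (80 to 71 bases before the start) and in Ccr1 (74 to 65 bases before), and in 8.46% of 32851 promoter windows. The TATA box TATAAA matched in Ccl12, 31 to 26 bases before the start, and in 13.6% of windows. AP-1 (TGANTCA, 7.81% of windows), the interferon-stimulated response element (GAAA, any 2 bases, GAAA; 3.44%) and the C/EBP core (TTGCNNAA, 10.8%) had no match in any of the 5 windows. No match overlapped another. These are matches of letters and show no binding.

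Against tumours, 7 of the 8 tested genes were lower in bioink and none higher, where 37.3% of all genes were lower and 27.1% higher. All 8 were lower in 2D culture, where 27% of all genes were lower. Ccl3, Ccl4, Ccl12 and Ccr1 were at 8 or below in every culture library. They reached the minimum mean of 10 over the 9 libraries only through their tumour values. That filter favoured a call of lower than tumours for them and left out Ccl20, at 0 in tumours. They also weigh in the medians given below. The same applies to other tested genes near 0 in both cultures. Between the cultures, 5 of 8 were higher in bioink (Ccl2, Ccl3, Ccl5, Ccl7 and Ccr2), none was lower, and 3 did not pass; 27% of all genes were higher. After quantile normalization 2 of the 5 remained called, Ccl2 and Ccl7. The calls made by adjusted p were the same genes as those whose groups did not overlap, against 38.9%, 31.7% and 31.5% of all genes in these directions. Median log2 differences over the 8 were -6.38, -7.46 and 1.47 in this order, or -6.10 and 1.51 for the last 2 without the 3 genes listed at 0 in 2D culture. The medians over all genes were -0.11, 0.01 and -0.02. The comparisons of each culture with tumours share the tumour libraries. Other scalings moved the median of all genes by over 0.1, to 0.04 and 0.07 for bioink against tumours, to 0.18 for 2D culture against tumours and to 0.14 for bioink against 2D culture, with no change of sign in a call given here.

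Among the 7 listed ligands, Ccl2 and Ccl7 had the highest levels per kb in the bioink (473 and 176, against at most 26.7 for the others). Ccl2, the main ligand of Ccr2, stood at 1135, 1080 and 1083 in the tumour libraries, 641, 527 and 446 in the bioink and 22, 14 and 11 in 2D culture. The 3 groups did not overlap, and the bioink libraries held 40.6% to 58.3% of the tumour mean against 1.00% to 2.00% in 2D culture. Ccl2 was 34.3-fold higher in bioink than in 2D culture, from 15.7 ± 5.69 to 538 ± 98.0 (SD, n = 3 each; log2 5.05, SE 0.23, adjusted p = 1.18e-07). It was 2.04-fold lower in bioink than in tumours (1099 ± 30.9; log2 -1.05, SE 0.23, adjusted p = 0.00299) and 70.2-fold lower in 2D culture than in tumours (log2 -6.10, adjusted p = 2.05e-08).

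Ccl7, a second monocyte chemoattractant encoded on the same strand as Ccl2, followed the same order. Its values were 667, 632 and 626 in tumours, 143, 120 and 160 in bioink and 13, 14 and 4 in 2D culture. Again no group overlapped another. Ccl7 was 13.6-fold higher in bioink than in 2D culture (log2 3.79, SE 0.38, adjusted p = 1.79e-05). It was 4.55-fold lower in bioink than in tumours (log2 -2.19, adjusted p = 0.000638) and 62.1-fold lower in 2D culture than in tumours (log2 -5.98, adjusted p = 6.67e-07).

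Ccl12, the third Ccr2 ligand of this cluster, was nearly undetected in both cultures. It was listed at 377, 300 and 291 in tumours, at 0, 1 and 1 in bioink and at 0 in all 3 libraries of 2D culture. The tumour values stood apart from those of both cultures (bioink against tumours adjusted p = 9.56e-07, 2D culture against tumours adjusted p = 5.42e-07). The cultures were not called different (adjusted p = 0.291). Ccl8, a CC ligand outside the 7 listed, was at 274, 293 and 220 in tumours, 11, 17 and 9 in bioink and 0 throughout 2D culture.

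**Figure D1:**
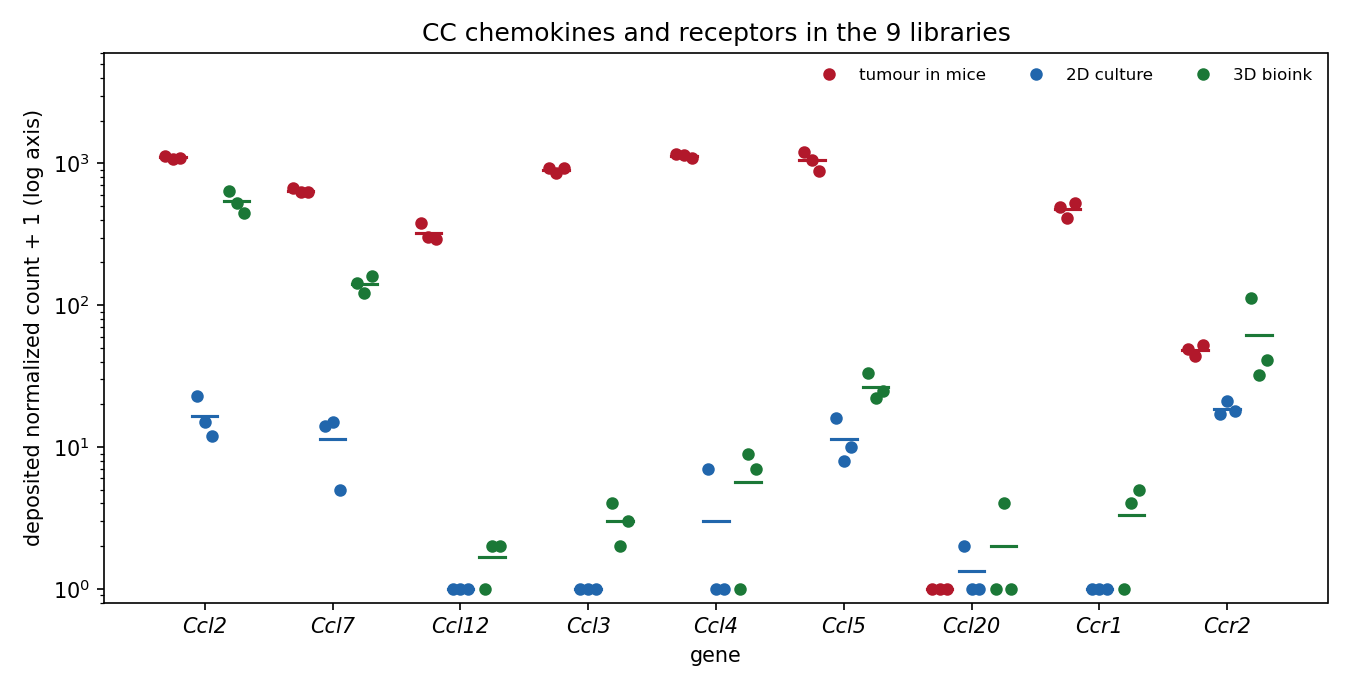
Deposited normalized count plus 1 (log axis) of the 9 genes in each library, with points for libraries and lines for group means. Ccl2 and Ccl7 in 3D bioink lie between tumours and 2D culture, whereas Ccl3, Ccl4, Ccl12 and Ccr1 in both cultures are at 8 or below; levels of different genes are not per length and are not comparable.

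Ccl3 and Ccl4, the macrophage inflammatory proteins, were high in tumours and near 0 in both cultures. Ccl3 stood at 930, 856 and 924 in tumours, 3, 1 and 2 in bioink and 0 in every 2D library. Bioink was lower than tumours (log2 -8.29, SE 0.42, adjusted p = 1.63e-07), and 2D culture was lower too (adjusted p = 4.63e-08). The call of higher Ccl3 in bioink than in 2D culture (adjusted p = 0.0111) rested on 1 to 3 units and was lost with 5 added before the log (adjusted p = 0.130).

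Ccl4 stood at 1155, 1147 and 1096 in tumours, 0, 8 and 6 in bioink and 6, 0 and 0 in 2D culture. The cultures overlapped and were not called different (log2 1.06, 95% confidence interval -1.07 to 3.18, adjusted p = 0.363), but were called without bioink replicate 1 (adjusted p = 0.0484). Both cultures were lower than tumours, with log2 -8.15 in bioink (adjusted p = 4.07e-05) and -9.21 in 2D culture (adjusted p = 2.07e-05). The log2 difference moved with single libraries. It was -7.16 without bioink replicate 1, -8.74 without bioink replicate 2 and, for 2D culture, -10.15 without 2D replicate 1.

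Ccl5, a ligand of Ccr1 typical of T cells and activated macrophages, kept a low level in both cultures. It stood at 1207, 1061 and 876 in tumours, 32, 21 and 24 in bioink and 15, 7 and 9 in 2D culture. No group overlapped another. Bioink was 40.8-fold lower than tumours (log2 -5.31, SE 0.31, adjusted p = 3.91e-07) and 2D culture was 101.4-fold lower (log2 -6.58, adjusted p = 8.52e-08). Bioink was 2.48-fold higher than 2D culture (log2 1.28, adjusted p = 0.00559), a call lost after quantile normalization (log2 0.35, adjusted p = 0.386).

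Ccl20, which draws cells bearing Ccr6, was listed at 0 in all 3 tumour libraries, at 0, 3 and 0 in bioink and at 1, 0 and 0 in 2D culture. Its receptor Ccr6 was at 2, 0 and 0 in tumours and at 0 in all 6 culture libraries. At these values no group stood apart.

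The receptor Ccr1, found on monocytes, macrophages and neutrophils, was at 494, 408 and 526 in tumours, 0, 3 and 4 in bioink and 0 throughout 2D culture. Bioink was lower than tumours (log2 -7.45, SE 0.63, adjusted p = 4.59e-06; -6.73 without bioink replicate 1), as was 2D culture (adjusted p = 1.46e-06). The cultures were not called different (adjusted p = 0.0743), but were without bioink replicate 1 (adjusted p = 0.00233), the library at 0.

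Ccr2, the receptor of Ccl2, Ccl7 and Ccl12, was the only 1 of the 8 tested genes not called lower in bioink than in tumours. It stood at 48, 43 and 51 in tumours, 111, 31 and 40 in bioink and 16, 20 and 17 in 2D culture. Bioink replicate 1 lay above every tumour library and the other bioink libraries lay below them, so these groups overlapped. No difference between bioink and tumours was called (60.7 ± 43.8 against 47.3 ± 4.04, n = 3 each; log2 0.13, 95% confidence interval -0.88 to 1.14, adjusted p = 0.811), and without bioink replicate 1 the sign turned (log2 -0.41, adjusted p = 0.305). Ccr2 was 3.43-fold higher in bioink than in 2D culture (log2 1.51, SE 0.45, adjusted p = 0.0159), or log2 0.96 without bioink replicate 1 (adjusted p = 0.0337). It was 2.68-fold lower in 2D culture than in tumours (log2 -1.37, adjusted p = 0.0260). This last call was lost on leaving out tumour replicate 1 (adjusted p = 0.0598) or 3 (0.0658), or 2D replicate 1 (0.0709) or 3 (0.0635). After quantile normalization neither Ccr2 call held (adjusted p = 0.284 and 0.196).

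**Figure D2:**
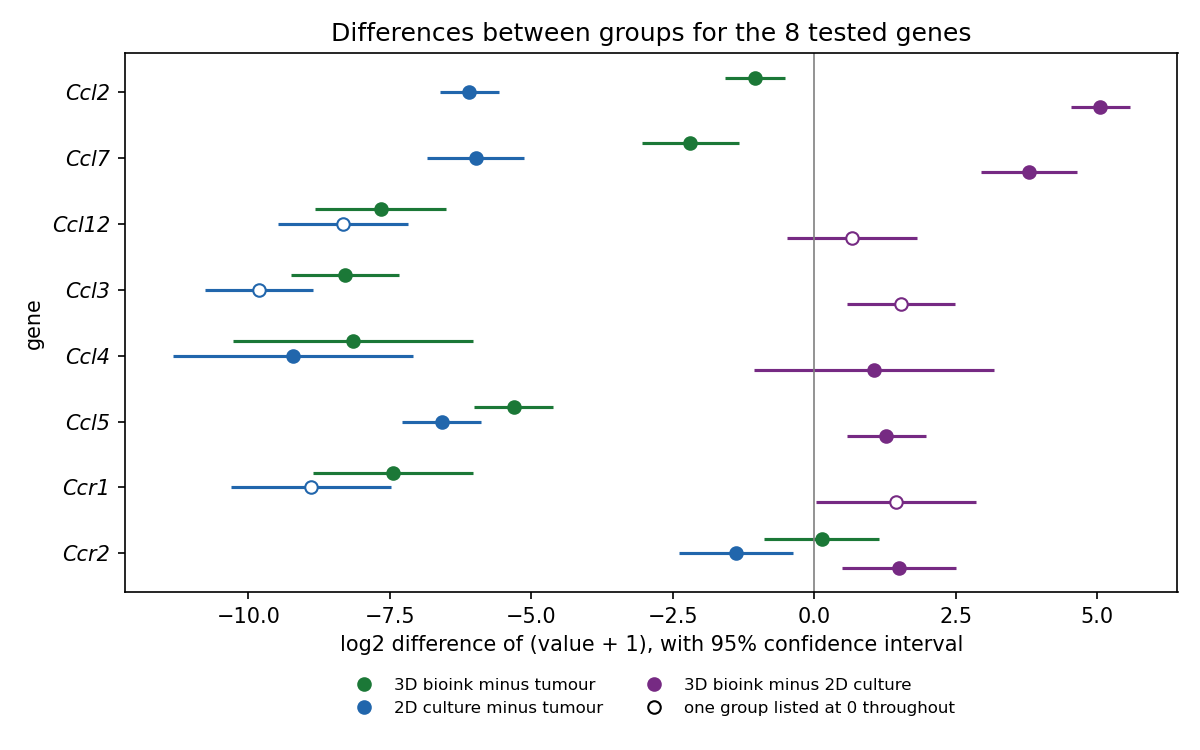
Log2 difference of (value + 1) with its 95% confidence interval for the 8 tested genes in the 3 comparisons; open points mark a comparison in which a group was listed at 0 in all 3 libraries. Ccl2 (5.05) and Ccl7 (3.79) have the largest differences between 3D bioink and 2D culture, and Ccr2 has the smallest differences from tumours.

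The makeup of the ligands differed between tumours and bioink when levels were set per kb of annotated exon. The summed level of the 7 ligands was 6754, 6257 and 6054 per kb in tumours, 779, 652 and 630.2 in bioink and 61.0, 37.1 and 24.0 in 2D culture. Ccl2 and Ccl7 together made up 27.1%, 27.8% and 28.6% of it in tumours and 95.2%, 94.0% and 93.9% in bioink. Ccl3 and Ccl4 made up 43.9% to 47.4% in tumours and 0.503% to 2.06% in bioink. In 2D culture the sums were too low for stable shares, and the part of Ccl2 and Ccl7 ran from 58.3% to 80.3%. The ratio of Ccl2 to Ccl7 per kb was 1.20 to 1.22 in tumours and 1.96 to 3.16 in bioink. These shares are given as values, with no test.

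**Figure D3:**
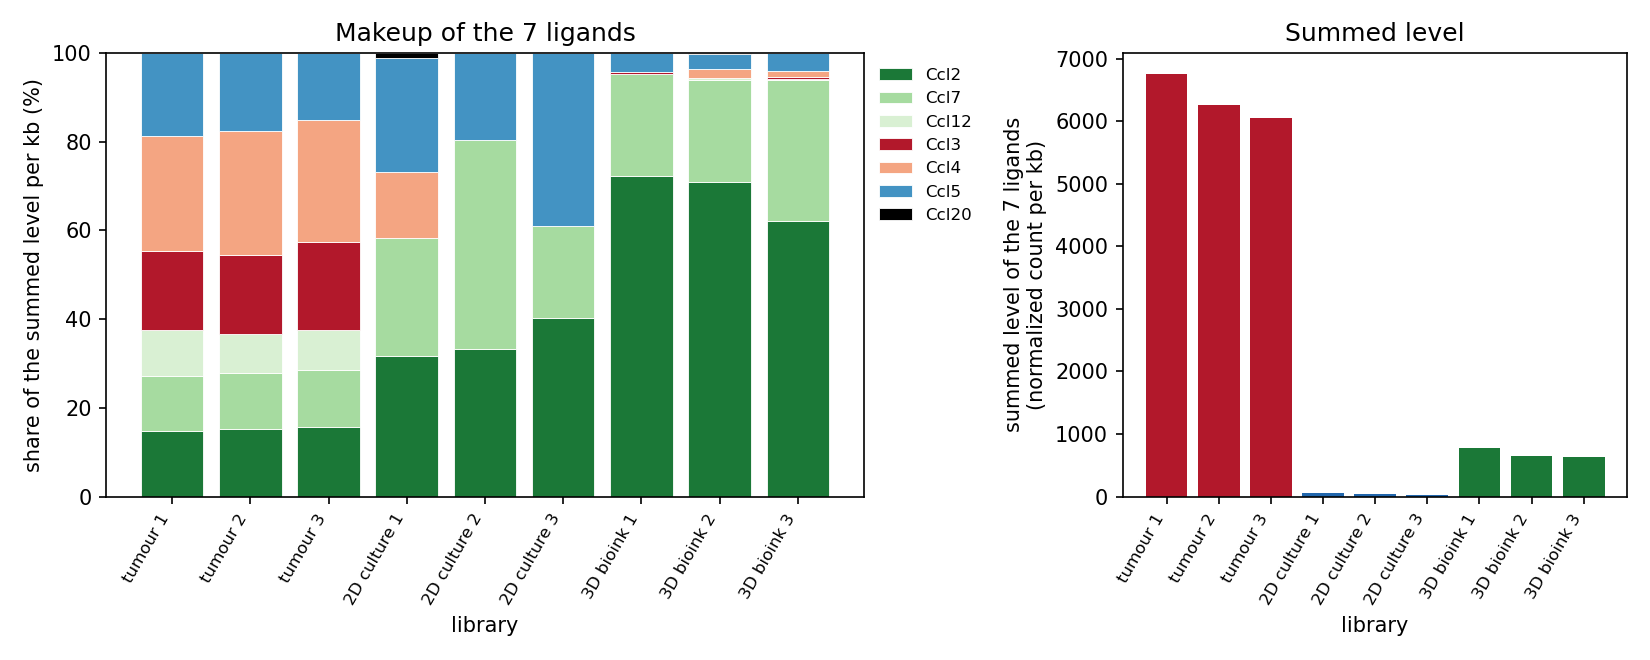
Left, share of each of the 7 ligands in their summed level per kb of exon (%), by library; right, that summed level (normalized count per kb). In tumours 6 ligands hold a visible part, whereas Ccl2 and Ccl7 fill 93.9% to 95.2% of the bars of 3D bioink, on sums of 630.2 to 779.

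Of 14 other CC ligands, 8 could be tested. In bioink 5 were lower than in tumours (Ccl6, Ccl8, Ccl9, Ccl22 and Ccl24), the same 5 were lower in 2D culture, and without the filter on low values 8 were lower in each. Over all genes 37.3% were lower in bioink and 27% in 2D culture. Ccl6 and Ccl9, macrophage chemokines acting through Ccr1, had the highest means. Ccl6 stood at 988, 1192 and 1192 in tumours and at most 4 in any culture library. Ccl9 stood at 605, 586 and 757 in tumours, 7, 38 and 17 in bioink and 18, 8 and 12 in 2D culture. Ccl28, a mucosal ligand, was called higher in bioink than in tumours (log2 1.45, adjusted p = 0.0285), at 34, 29 and 36 against 9, 8 and 20. That call was lost on leaving out any library but tumour replicate 3 (adjusted p = 0.0506 to 0.0823).

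Ccl25, a ligand of Ccr9 known from thymus and gut, did not follow the inflammatory ligands. It stood at 156, 217 and 149 in tumours, 165, 163 and 174 in bioink and 197, 201 and 226 in 2D culture, with no call in any comparison (adjusted p = 0.862, 0.203 and 0.143). It was called higher in 2D culture than in tumours without tumour replicate 2 (adjusted p = 0.0365) and after quantile normalization (0.0321). Between the cultures 1 of the 8 ligands, Ccl8, was higher in bioink (adjusted p = 3.65e-05) and none was lower, where 27% of all genes were higher and 32.2% lower. In a fit to the 2 cultures alone Ccl8 fell below the filter and none was higher, and after quantile normalization 1 ligand was lower.

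Among other CC receptors, Ccr7, which guides dendritic cells and T cells to lymph nodes, was lower in both cultures than in tumours. It stood at 120, 99 and 59 in tumours, 0, 4 and 0 in bioink and 0 throughout 2D culture (adjusted p = 9.75e-05 for bioink and 4.89e-05 for 2D culture). Ccr9, the receptor of Ccl25, was higher in bioink than in 2D culture, at 70, 65 and 83 against 20, 17 and 21 (log2 1.85, adjusted p = 0.00176). Ccr10 was called lower in bioink than in 2D culture, at 73, 111 and 93 against 113, 153 and 189 (log2 -0.70, adjusted p = 0.0328). The Ccr10 call was lost at equal upper quartiles (adjusted p = 0.0893) and on leaving out 2D replicate 2 (0.0849) or 3 (0.128) or bioink replicate 1 (0.0934) or 3 (0.0657).

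Among receptors listed as atypical, which do not signal through G proteins, Ccrl2 went with the inflammatory genes. It was at 576, 478 and 562 in tumours, 0, 3 and 9 in bioink and 0 in 2D culture. Ackr3, which scavenges CXC ligands, was present in every library. It stood at 1542, 1635 and 1536 in tumours, 1506, 1198 and 1273 in bioink and 1006, 851 and 967 in 2D culture. It was 1.41-fold higher in bioink than in 2D culture (adjusted p = 0.00152). Its call against tumours in bioink (log2 -0.25, adjusted p = 0.0418) was lost under quantile normalization and equal upper quartiles (adjusted p = 0.431 and 0.553), without the trend (0.0753), in a fit to these 2 groups alone (0.0534) and on leaving out any library but bioink replicate 1 (0.0682 to 0.140).

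**Figure D4:**
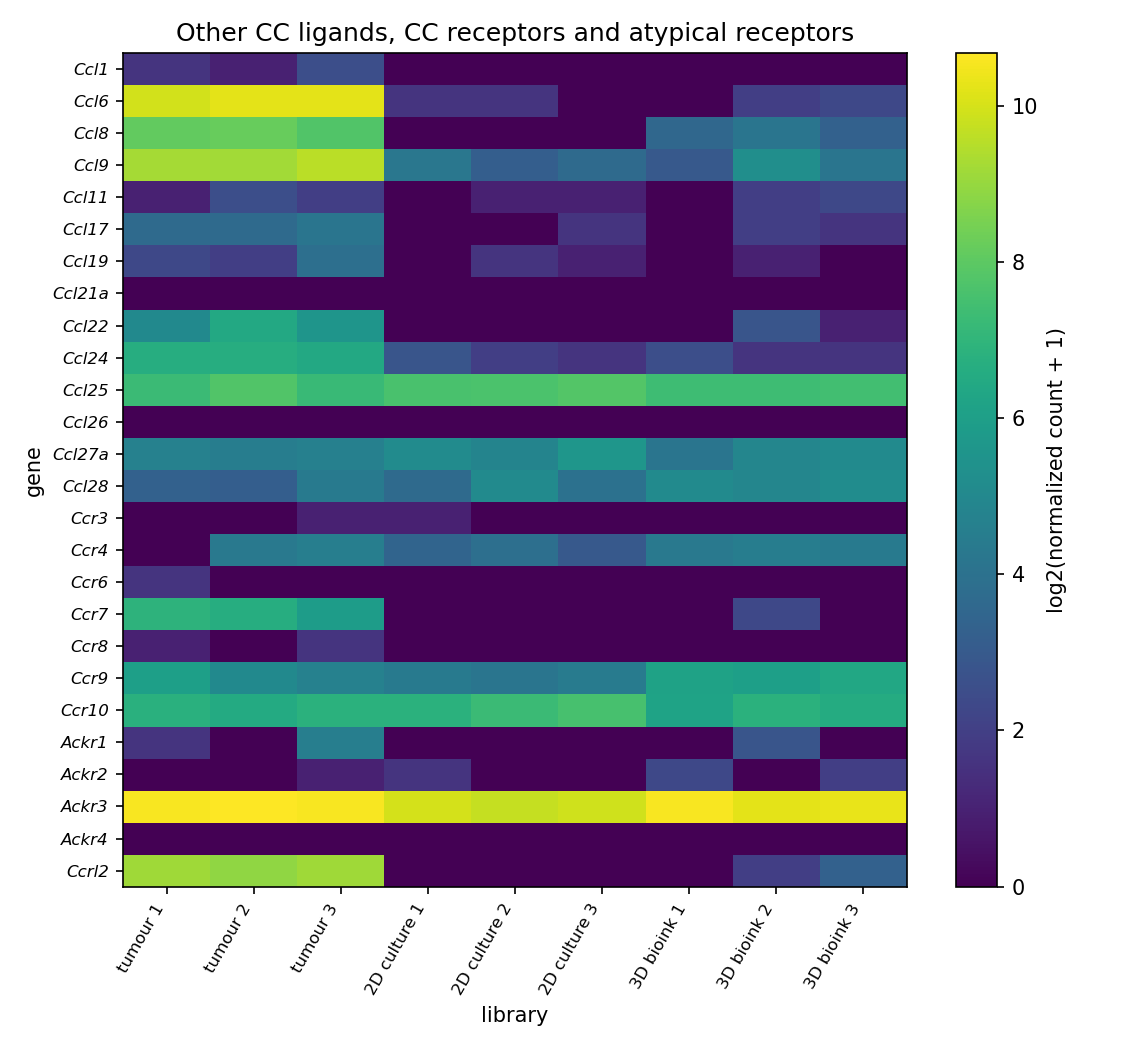
Log2(normalized count + 1) of 14 other CC ligands, 7 CC receptors and 5 atypical receptors in the 9 libraries, to be read along a row, since values are not per length. Ccl6, Ccl9 and Ccrl2 are bright in the 3 tumour libraries only, while Ccl25 and Ackr3 are bright in all 9.

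A further list held cytokines that induce CC chemokines, their receptors and genes of the NF-kB pathway they signal through. Several of its receptor and pathway genes differed between the cultures, whereas Tnf, Il1a, Il1b and Ifng were near 0 in both. Of 17 tested genes on this list, 10 were higher in bioink than in 2D culture, none was lower and 7 did not pass (median log2 difference 0.91), where 27% of all genes were higher. The 10 included Tnf and Il1b, at 9 or below in every culture library. Both of these calls were lost after quantile normalization (adjusted p = 0.613 and 0.197). The NF-kB targets Tnfaip3, Nfkbiz and Nfkbia, which feed back on the pathway, had the 3 largest differences. Tnfaip3, a ubiquitin-editing inhibitor, stood at 4900, 4832 and 4871 in bioink against 206, 256 and 252 in 2D culture (20.5-fold, adjusted p = 4.33e-10). Nfkbiz, a nuclear co-regulator, stood at 2807, 2772 and 2820 against 265, 290 and 353 (9.25-fold, adjusted p = 7.88e-09). Nfkbia, the inhibitor IkB alpha, stood at 4032, 4343 and 4209 against 656, 609 and 664 (6.52-fold, adjusted p = 7.12e-10).

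In tumours these 3 genes were higher still, from 9693 to 14912, while Tnf, Il1a and Il1b were high in tumours alone. Tnf stood at 2473, 2492 and 2416 in tumours and at most 9 in any culture library, and Il1b stood at 8845, 8704 and 8358 against at most 8. Il1a stood at 1782, 1745 and 1600 against at most 5, and Ifng, below the filter, at 32, 11 and 12 in tumours and 0 in both cultures. The interleukin 1 receptor Il1r1 was higher in bioink than in both other groups, at 104, 87 and 145 against 17, 24 and 21 in 2D culture (adjusted p = 0.000231) and 26, 25 and 15 in tumours (adjusted p = 0.000232). Against tumours, 12 of the 17 were lower in bioink and 1 higher (37.3% and 27.1% of all genes), and 15 were lower in 2D culture (27% of all genes).

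**Figure D5:**
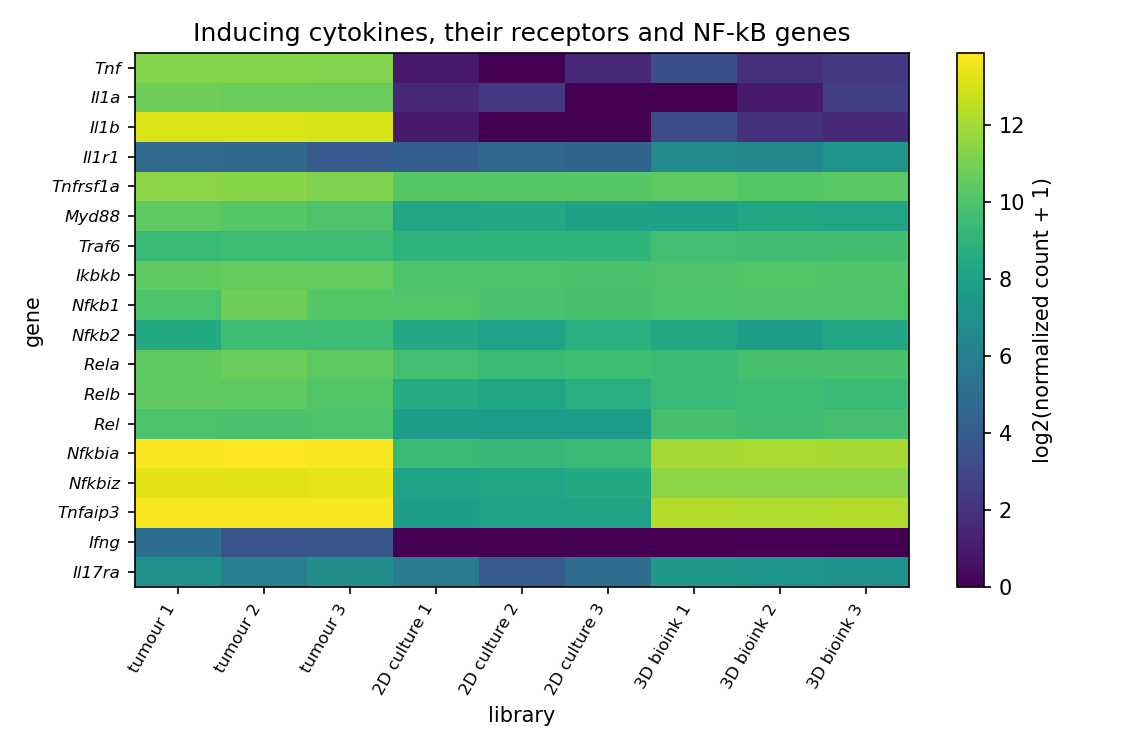
Log2(normalized count + 1) of 18 genes for inducing cytokines, their receptors and the NF-kB pathway in the 9 libraries, to be read along a row. Nfkbia, Nfkbiz and Tnfaip3 in 3D bioink lie between 2D culture and tumours, while Tnf, Il1a and Il1b are dark in both cultures.

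Genes of signalling below chemokine receptors were mostly lower in the cultures than in tumours. Of 20 tested, 18 were lower in bioink and 2 higher (Gnai3 and Arrb1), against 37.3% and 27.1% of all genes. In 2D culture 17 were lower and 1 higher (Gnai3), against 27% and 27.3% of all genes. Between the cultures 6 were higher in bioink, 5 lower and 9 did not pass, shares near those of all genes (27% higher, 32.2% lower). The largest of these differences was in Rgs2, a regulator of G protein signalling, at 228, 182 and 196 in bioink, 36, 29 and 31 in 2D culture and 491, 540 and 607 in tumours. Phospholipase Plcb2 (3, 15 and 6 against 0, 2 and 0) and the leukocyte GTPase Rac2 (71, 33 and 33 against 10, 18 and 2) were also higher in bioink than in 2D culture (adjusted p = 0.00766 and 0.00760).

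Genes closest to each member were found by the root mean square difference of centred log2 values over the 9 libraries, as a description. For Ccl2 they were Serping1 (0.32), N4bp2l1 (0.34) and Cxcl1 (0.38), and Cxcl1 stood at 864, 869 and 906 in tumours, 537, 430 and 536 in bioink and 14, 18 and 5 in 2D culture. For Ccl7 they were C1s1 (0.38), Lag3 (0.40) and Naip5 (0.41). Ccl3 was closest to Arg1 (0.39), Il1rn (0.39) and Tnf (0.47), Ccl4 to Pld4 (0.49), Myo1f (0.53) and Sla (0.55), and Ccl5 to Il21r (0.28), Adam8 (0.28) and Cyp4f18 (0.33). Ccl12 was closest to Ncf4 (0.27), Csf1r (0.37) and Gzmb (0.39), and Ccr1 to Inpp5d (0.29), Ccrl2 (0.31) and Cxcl9 (0.48). For Ccr2 they were Sdr42e1 (0.27), 1700109H08Rik (0.28) and Pkib (0.32), whose values in bioink replicate 1 were also above those of replicates 2 and 3, as for Pkib at 382 against 205 and 212. Among the members, the nearest pairs were Ccl12 with Ccr1 (0.48) and Ccl2 with Ccl7 (0.67).

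Marker lists of the cell types that these libraries could hold differed between the groups in several ways. Of 14 monocyte and macrophage markers, 13 were lower in each culture than in tumours, where 37.3% (bioink) and 27% (2D culture) of all genes were lower, and Vcan was higher in each. Between the cultures 9 were higher in bioink and 1, Plac8, lower (27% and 32.2% of all genes). The list summed to 46374 to 48086 in tumours, 2820 to 3013 in bioink and 1462 to 1608 in 2D culture, but most of the sum in both cultures was Vcan. Vcan, a matrix proteoglycan that other cells also make, stood at 587, 615 and 524 in tumours, 2308, 2164 and 2185 in bioink and 1390, 1342 and 1227 in 2D culture. Ly6c2 was at 0 in all 6 culture libraries, Adgre1 was at 0 in 2D culture and at 2, 6 and 3 in bioink, and Cd14 was at 362, 246 and 268 in bioink against 14, 25 and 30 in 2D culture.

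Of 12 microglia markers, 11 were lower in each culture than in tumours, where 37.3% (bioink) and 27% (2D culture) of all genes were lower. Between the cultures 3 were higher in bioink, a share near the 27% of all genes. They summed to 21261 to 22131 in tumours, 1562 to 1657 in bioink and 936 to 1048 in 2D culture, with Fcrls at 0 in bioink.

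Markers of lymphocytes and other leukocytes were mixed. Of 8 tested T and NK cell markers, 4 were lower in bioink than in tumours and 4 did not pass, where 37.3% of all genes were lower. In 2D culture 7 were lower than in tumours (27% of all genes), and 4 were higher in bioink than in 2D culture (27% of all genes). The 11 in the table summed to 607 to 728 in tumours, 212 to 302 in bioink and 87 to 103 in 2D culture. Cd2, Nkg7 and Gzmb were at 0 in both cultures, whereas Cd3d stood at 104, 95 and 134 in tumours, 173, 109 and 157 in bioink and 60, 78 and 72 in 2D culture. Foxp3 stood at 0, 19 and 39 in tumours, 47, 13 and 10 in bioink and 7, 6 and 6 in 2D culture.

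The 7 neutrophil markers summed to 792 to 938 in tumours, 75 to 135 in bioink and 23 to 44 in 2D culture. Nearly all of the tumour sum was Csf3r (868, 743 and 737), which was lower in both cultures, while Cxcr2 stood at 53, 37 and 64 in tumours and 107, 63 and 66 in bioink, with no call between them. S100a8, S100a9, Ly6g and Retnlg were at 5 or below in every library. Of 6 tested dendritic cell markers, 3 were lower in bioink than in tumours, 1 (Zbtb46) was higher and 2 did not pass. Over all genes 37.3% were lower and 27.1% higher in that comparison. Itgax (3395, 3531 and 3044 in tumours, at most 10 in the cultures) carried the tumour sum of 3389 to 3924, against 284 to 326 in bioink and 159 to 172 in 2D culture. The 4 B cell markers summed to 26 to 59, 35 to 46 and 1 to 5, and the 1 tested, Cd79a, was not called between bioink and tumours. Cd79a stood at 27, 18 and 13 in tumours, 40, 24 and 28 in bioink and 3, 1 and 0 in 2D culture. It was called lower in 2D culture than in both other groups. Between the cultures, 1 of 2 tested neutrophil markers and 2 of 6 dendritic cell markers were higher in bioink and none lower. Over all genes 27% were higher and 32.2% lower in that comparison.

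Against tumours, markers of the other seeded cells were mixed as well. Between the cultures, 4 of 6 tested pericyte and mural markers, 4 of 8 astrocyte markers and 3 of 8 endothelial markers were higher in bioink. Only 1 marker of these lists, an endothelial one, was lower. Over all genes 27% were higher and 32.2% lower in that comparison. The 8 pericyte and mural markers summed to 4260 to 4647 in tumours, 2829 to 3006 in bioink and 1031 to 1079 in 2D culture, the order of Ccl2 and Ccl7. Even so, 4 of the 6 tested were higher in bioink than in tumours, where 27.1% of all genes were higher. Anpep (2964, 3054 and 2646 in tumours, 307, 416 and 358 in bioink, 66, 71 and 82 in 2D culture) carried that order, and Vtn and Kcnj8 were at 0 in 2D culture. The 8 astrocyte markers summed to 4113 to 4291, 5040 to 5282 and 4336 to 4608 in the same order of groups. Gfap (625, 553 and 603, then 367, 362 and 395, then 163, 187 and 149) and Slc1a3 followed the order of Ccl2. The rest (Aqp4, Aldh1l1, Slc1a2, Gja1, S100b and Sox9) did not, each with its highest group mean in bioink or 2D culture. The 8 endothelial markers summed to 5495 to 5882, 5365 to 7718 and 4836 to 5195. Among them Cldn5 (147, 145 and 93, then 20, 19 and 15, then 8, 2 and 3), Tie1, Pecam1, Kdr and Tek had group means in the order of Ccl2 too. Groups overlapped for all of these but Cldn5. The means of Cdh5, Flt1 and Egfl7 were not in that order. Fibroblasts were not seeded, and their 7 markers summed to 1066 to 1089, 14048 to 15093 and 9056 to 9596. Most of the culture sums was Col1a1 (mean 7449 in bioink, 5345 in 2D culture) and Col1a2 (5494 and 3413). Dcn stood at 1, 0 and 11, then 329, 405 and 389, then 3, 4 and 0. Lum stood at 2, 15 and 0, then 77, 27 and 31, then 3, 0 and 0. Of the 7 markers, 6 were higher in bioink than in tumours and 1 lower (27.1% and 37.3% of all genes). Against 2D culture, 6 were higher in bioink and none lower (27% and 32.2% of all genes). Postn went the other way, at 73, 66 and 101, then 46, 19 and 30, then 36, 31 and 43. The part of these cell types, of the collagenase step and of library depth in the chemokine differences was not tested.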

How the data were processed

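RNA was sequenced in bulk from 9 libraries prepared with a directional kit (25 to 75 ng input, 14 cycles of PCR), per the labels. What the authors deposited is a score, a normalized count for each symbol in each library after rounding. The submitters' processing notes name kallisto, RSEM, DESeq2 (1.24.0) and DESeq with build mm10, without role or order. One limma model (limma 3.58.1, R 4.3.3; eBayes with trend) was fitted to log2(value + 1) of all libraries for the 13773 of 20778 symbols whose mean reached 10, with Benjamini-Hochberg adjustment and a threshold of 0.05. It was tested on simulated data with 200 genes changed. The worth of 1 read was estimated from how often each low value occurs, and is uncertain for tumour replicates 2 and 3. Levels per kb used the union of GENCODE M21 exons.

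Groups and replicate numbers came from sample titles. The members and lists were chosen with earlier results of these data known. The rule for named genes took all 9 members, related genes with a group mean of at least 100, Ccr6, the 3 largest differences between the cultures in the signalling and NF-kB lists, and the 3 genes closest to each member. An item that the rule also took is not reported here. Other genes were named after their values were seen. Alternatives were 2 other pseudocounts, no filter, 2 other scalings, no trend, the 2 groups compared alone, a replicate block and leaving out each library.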

Additional observations from a re-analysis of the deposited data

How the results depend on the processing

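Calls of lower Ccl2, Ccl3, Ccl4, Ccl5, Ccl7, Ccl12 and Ccr1 against tumours held in both cultures under all 14 alternatives run for each comparison, and so did the calls of higher Ccl2 and Ccl7 in bioink than in 2D culture. The number of members called higher in bioink than in 2D culture was 2 after quantile normalization, against 5, and the cause was not tested. Leaving out 1 library gave 5 to 7 members higher in that comparison, 7 lower in bioink against tumours and 7 to 8 lower in 2D culture against tumours. At equal upper quartiles, 4528 genes were higher and 3585 lower in bioink than in 2D culture, against 3713 and 4435 as deposited. Some small differences that were not called changed sign. Ccl25 in bioink against tumours gave 0.21 after quantile normalization and 0.15 at equal upper quartiles (log2), and -0.14 to 0.13 on leaving out a library. Il1r1 in 2D culture against tumours gave 0.61 after quantile normalization and -0.30 to 0.074 on leaving out a library. Between the cultures, quantile normalization gave -0.80 for Ccl6 and -0.34 for Ccl9, which ran from -0.14 to 1.10 and from -0.12 to 1.02 on leaving out a library. Ccr2 in bioink against tumours ran from -0.41 to 0.49 on leaving out a library. The main fit did not pair libraries by replicate number, and whether the numbers mark pairs is not known. Deviations of same-numbered libraries correlated between -0.03 and 0.08, and each bioink library correlated best with the tumour library of its own number, a hint from the data only. With a replicate block 3682 genes were higher and 5113 lower in bioink than in tumours, against 3737 and 5132, and 5 members were higher in bioink than in 2D culture. Ccl20 was tested only without the filter (adjusted p = 0.385, 0.713 and 0.681). Depth is an estimate, so values of a few units carry no detection limit.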
